A study of Homo sapiens with 8 samples.

Results

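The 5 hairpin entries of the human miR-302 and miR-367 cluster, MIR302A, MIR302B, MIR302C, MIR302D and MIR367, were taken from 4 tables of 49235 RefSeq transcript entries by the RefSeq accession of each symbol. All 5 had exactly 1 entry in every table. All libraries came from H1, an established line of human embryonic stem cells, grown feeder-free on Matrigel in medium with basic fibroblast growth factor and puromycin. Doxycycline switched on a short hairpin RNA in them, either one against EXOSC3, a core subunit of the RNA exosome (shEXOSC3), or a non-silencing one (shNS). Each line was sequenced with doxycycline and without it on days 5 and 7, which gave 8 groups of 1 library each: shEXOSC3 and shNS, untreated or treated, on either day. Nothing in the labels says whether a line was 1 clone or a pool of cells. The study asks what the exosome does in stem cell differentiation. The members were chosen by their measured FPKM on each day, so these values are a description with no test, and no difference has a replicate check.

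The cluster is a set of microRNA hairpins that are transcribed together as 1 primary RNA. Drosha and DGCR8 cut the hairpins out in the nucleus, and Dicer trims each to a mature microRNA of about the length printed here, which guides Argonaute proteins to messenger RNAs by its seed, bases 2 to 8. The cluster is known for its high activity in pluripotent stem cells, where POU5F1, SOX2 and NANOG bind its promoter, and for repressing cell cycle inhibitors and the NODAL antagonists LEFTY1 and LEFTY2. The libraries here were made from total RNA after removal of ribosomal RNA, not from size-selected small RNA. A value therefore counts fragments that map to a hairpin and cannot tell primary transcript, hairpin and mature microRNA apart.

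The mature 3p arms are shown first because the seed divides the 5 members into 2 families. All sequences are those of RefSeq on GRCh38.p14, 5′ to 3′, and 5 of 5 members matched. Capitals mark the seed.
miR-302b-3p: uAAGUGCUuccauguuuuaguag
miR-302c-3p: uAAGUGCUuccauguuucagugg
miR-302a-3p: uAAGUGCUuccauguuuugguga
miR-302d-3p: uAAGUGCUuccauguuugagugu
miR-367-3p: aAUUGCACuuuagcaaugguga
The 4 miR-302 arms of 23 bases begin with the same 17 bases, and any pair is identical at 20 or 21 positions. The 22 bases of miR-367-3p hold another seed and match a miR-302 arm at 4 or 5 positions.

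The 5p arms, from the opposite side of each hairpin, differ more, and they are printed to show how their seeds vary. Only miR-302b-5p and miR-302d-5p have the same seed, and each of the others has a seed of its own.
miR-302b-5p: aCUUUAACauggaagugcuuuc
miR-302c-5p: uUUAACAUggggguaccugcug
miR-302a-5p: aCUUAAACguggauguacuugcu
miR-302d-5p: aCUUUAACauggaggcacuugc
miR-367-5p: aCUGUUGCuaauaugcaacucu

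The whole hairpins are what the deposited entries measure, so they are given too, with the mature 3p arm in capitals and in their order along the transcribed strand.
MIR302B: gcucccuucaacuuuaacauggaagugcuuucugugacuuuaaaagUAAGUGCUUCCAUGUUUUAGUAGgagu
MIR302C: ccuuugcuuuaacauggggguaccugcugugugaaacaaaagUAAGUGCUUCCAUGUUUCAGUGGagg
MIR302A: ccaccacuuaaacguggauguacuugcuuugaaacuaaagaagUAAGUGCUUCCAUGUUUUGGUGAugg
MIR302D: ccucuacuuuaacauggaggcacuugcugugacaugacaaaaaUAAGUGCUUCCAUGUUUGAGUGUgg
MIR367: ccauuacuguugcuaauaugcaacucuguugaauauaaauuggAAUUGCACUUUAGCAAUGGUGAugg
They are 73, 68, 69, 68 and 68 bases long. The longest run that 2 miR-302 hairpins share is 17 to 22 bases, and MIR367 shares at most 9 bases with any of them. The labels give no read length, so how often a read could fit 2 hairpins is unknown and the split among the miR-302 entries carries that uncertainty.

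On GRCh38.p14 the hairpins lie on the minus strand of chromosome 4, MIR302B at 112648485 to 112648557, MIR302C at 112648363 to 112648430, MIR302A at 112648183 to 112648251, MIR302D at 112648004 to 112648071 and MIR367 at 112647874 to 112647941. Together they span 684 bases. In GENCODE release 29 all 5 lie in introns of 6 transcripts of LARP7, a protein that binds the 7SK small nuclear RNA, which is transcribed from the plus strand. On the minus strand they lie in introns of the antisense RNA gene AC106864.1, except that MIR302B overlaps part of an exon in 1 of 3 transcripts. RefSeq's host gene of the cluster, MIR302CHG, was not analysed here. The deposited tables use hg19 and give the hairpins no position of their own: all 5, with 3 LARP7 entries, 1 ZGRF1 entry and 1 entry without a symbol, carry the shared locus chr4:113460488-113578748. Whether the counting used strand is unknown from the labels, so reads from LARP7 introns and from the cluster cannot be told apart by these values.

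On day 5 all 5 members were listed at 0 FPKM (fragments per kilobase of transcript, scaled to the fragments mapped in the library) in all 4 libraries, and on day 7 all 5 had a value above 0 in all 4 libraries. MIR302C was at 16355 FPKM in untreated and 14373 FPKM in treated shEXOSC3 on day 7, and at 17241 and 12212 FPKM in shNS. The treated shNS library was the lowest of the 4 and the untreated shNS library the highest. In bulk RNA such as this, fewer cells with the transcript and less of it per cell cannot be told apart. MIR302C ranked 1st, 2nd, 1st and 4th of all 49235 entries in untreated shEXOSC3, treated shEXOSC3, untreated shNS and treated shNS.

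MIR302D followed with 1354 and 1101 FPKM in shEXOSC3 without and with doxycycline and 798 and 838 FPKM in shNS. MIR302A stood at 861 and 876 FPKM in shEXOSC3 and at 533 and 457 FPKM in shNS. Both entries were higher in the pair of shEXOSC3 libraries than in the pair of shNS libraries, whether or not doxycycline was given. MIR302B went the other way, and MIR302C and MIR367 overlapped between the lines. How many of all entries show such an order was not counted, so nothing is read from it. FPKM of tables made separately can differ in scale, so that order between lines carries that limit.

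MIR302B had 89.8 and 97.6 FPKM in shEXOSC3 without and with doxycycline and 127 and 143 FPKM in shNS. MIR367 had 113 and 123 FPKM in shEXOSC3 and 319 and 59.9 FPKM in shNS. The untreated and the treated shNS library thus held the highest and the lowest MIR367 value of day 7. Over the 4 libraries the median levels were 15364 FPKM for MIR302C, 970 for MIR302D, 697 for MIR302A, 118 for MIR367 and 112 for MIR302B. MIR302C was clear of MIR302D in this order, and MIR302A of MIR367, while the ranges of MIR302D (798 to 1354) and MIR302A (457 to 876) overlapped, and so did those of MIR367 (59.9 to 319) and MIR302B (89.8 to 143). Within each of the 4 libraries MIR302D lay above MIR302A, and MIR367 lay above MIR302B except in treated shNS. All of these are levels per length among entries of 68 to 73 bases.

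**Figure D1:**
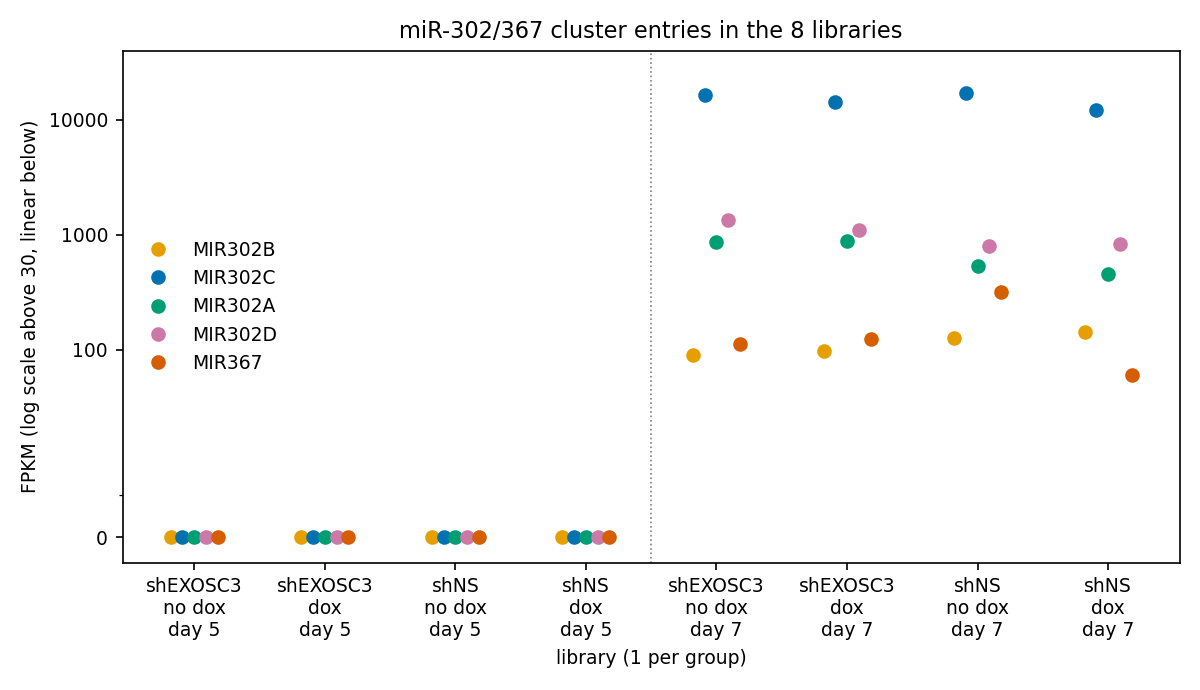
FPKM of the 5 hairpin entries (vertical axis, logarithmic above 30 and linear below) in the 8 libraries (horizontal axis, 1 library per group), 1 colour per member. All points of day 5 lie at 0, and on day 7 MIR302C lies between 12212 and 17241 FPKM, above the other 4 members in every library.

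How many reads stand behind these values was read from their steps. Where whole reads are counted, the FPKM of entries of 1 length in 1 library are whole multiples of what 1 read is worth. Among other microRNA and snoRNA entries of 68, 69 or 73 bases, 50 of 53 values above 0 (94.3%) were whole multiples within 1 percent. All 20 member values of day 7 were, with a largest distance of 0.00529 reads from a whole number. The worth of 1 read was set from the smallest values of the other entries, so those were whole by construction. Among all other microRNA and snoRNA entries up to 120 bases, 74.3% of values above 0 were whole. In an entry of 69 bases 1 read was worth 53.8 and 58.4 FPKM in untreated and treated shEXOSC3 on day 7, and 76.2 and 57.1 FPKM in shNS. A hairpin value of 100 FPKM therefore rests on very few reads, and FPKM of hairpins cannot be set beside those of messenger RNAs as amounts of RNA.

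MIR302C rested on 290 and 235 reads in untreated and treated shEXOSC3, and on 216 and 204 reads in shNS. The exact 95% Poisson intervals of these numbers were 258 to 325, 206 to 267, 188 to 247 and 177 to 234. MIR302D rested on 24, 18, 10 and 14 reads in the same order of libraries, MIR302A on 16, 15, 7 and 8, MIR302B on 2, 2, 2 and 3, and MIR367 on 2, 2, 4 and 1. The higher shEXOSC3 values of MIR302D and MIR302A thus rest on differences of a few reads. Such intervals cover counting error only, and reads without molecular identifiers may be copies of 1 molecule.

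**Figure D2:**
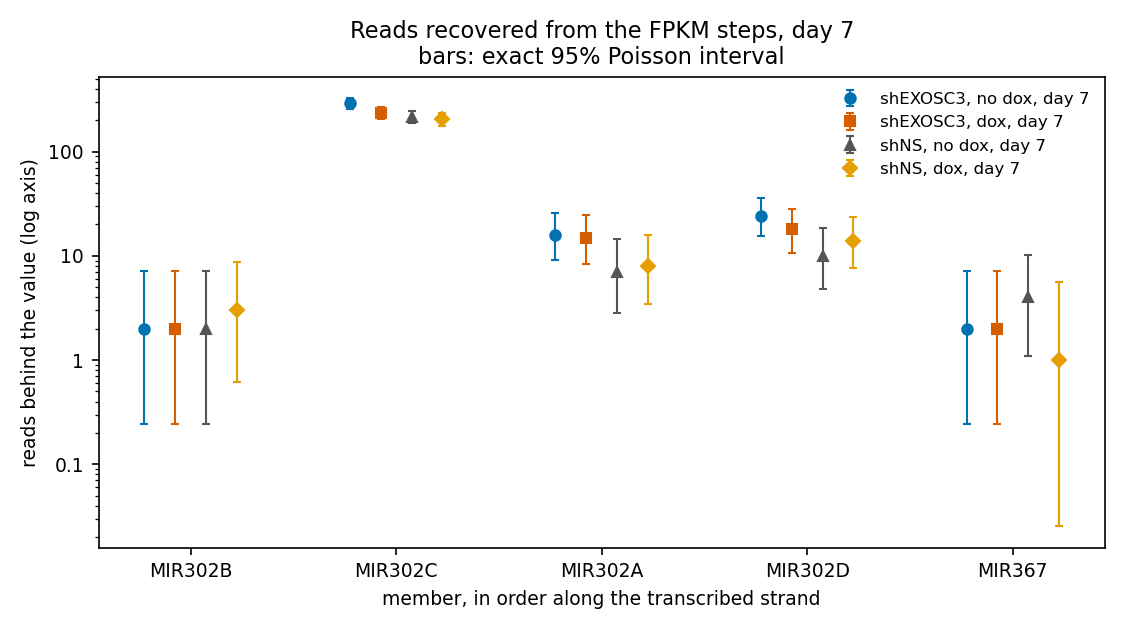
Reads recovered for each member (horizontal axis, in order along the transcribed strand) in the 4 libraries of day 7 (symbols), on a logarithmic vertical axis, with exact 95% Poisson intervals as bars. MIR302C lies at 204 to 290 reads, while the intervals of MIR302B and MIR367, at 1 to 4 reads, overlap one another in every library.

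MIR302C made up most of the cluster in each library of day 7. Its share of the cluster's reads was 86.8% (exact 95% binomial interval 82.7% to 90.3%) in untreated shEXOSC3, 86.4% (81.7% to 90.2%) in treated shEXOSC3, 90.4% (85.9% to 93.8%) in untreated shNS and 88.7% (83.9% to 92.5%) in treated shNS. Over all 1075 reads MIR302C held 87.9%, MIR302D 6.14%, MIR302A 4.28%, and MIR302B and MIR367 0.837% each. The second hairpin of the transcribed strand was thus the dominant one, and the first and the last were the lowest. The sum of the 5 entries took 40.0% and 36.8% of the FPKM of all microRNA entries in untreated and treated shEXOSC3 and 44.4% and 33.5% in shNS. These are shares of FPKM, not of reads, and short entries weigh more in them. In untreated shEXOSC3 on day 7 a read was worth 56.4 FPKM at 68 bases and 44.9 FPKM at 73 bases. Of the 1794 microRNA entries 1121 were longer than 75 bases.

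The day 5 values of 0 were set beside the other short entries of the same libraries. A single read in an entry of 68 bases was worth 67.3 and 66.8 FPKM in untreated and treated shEXOSC3 on day 5 and 50.1 and 31.5 FPKM in shNS, and 56.4, 61.2, 79.8 and 59.9 FPKM in the same order on day 7. This worth holds both the depth of a library and the authors' scaling of its table, and the files do not separate them. Whether a listed 0 was a count of 0 is unknown. If it was, it allows up to 3 reads (the one-sided 95% limit, counting error only). Over the day 5 libraries that would be 94.5 to 202 FPKM for entries of 68 bases. For MIR302A it would be 90.1 to 193 FPKM, and for MIR302B 75.2 to 161 FPKM. Without that condition these are no upper limits. The status in the authors' deposited tables was NOTEST for all 5 members in both tables of day 5 and OK in both of day 7. No fold between days is given, since every member was listed at 0 on day 5.

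Other short RNAs shared part of this pattern. Of 669 other microRNA and snoRNA entries of 60 to 75 bases, 1.20% to 3.59% had a value above 0 in the day 5 libraries and 10.8% to 12.6% in those of day 7. At 121 to 150 bases the shares were 55.6% to 69.2% on day 5 and 64.7% to 74.4% on day 7. Among all 1794 microRNA entries, 25 were at 0 in all 4 libraries of day 5 and above 0 in all 4 of day 7, the 5 members among them, and 2 showed the reverse. The reverse pair were MIR4449, a microRNA entry of 66 bases with 1333, 5373, 2206 and 2427 FPKM in untreated and treated shEXOSC3 and untreated and treated shNS of day 5, and MIR3143, with 161 to 258 FPKM. Entries of nearly the members' length were thus not at 0 throughout on day 5.

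A pair of abundant longer RNAs, named after their values were seen, had lower FPKM on day 7: RMRP, the RNA of the RNase MRP enzyme, was at 87126 to 115224 FPKM on day 5 and at 11204 to 15033 FPKM on day 7, and RPPH1, the RNA of RNase P, was at 62970 to 73648 FPKM and 2320 to 2810 FPKM. Over all entries, 555 were at 0 on day 5 and above 0 on day 7 and 563 the reverse. Among the 359 snoRNA entries these counts were 47 and 1. The part of length, composition and the making of the tables in the members' 0 values was not tested, and the day cannot be told apart from the table, since each table holds 1 day.

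**Figure D3:**
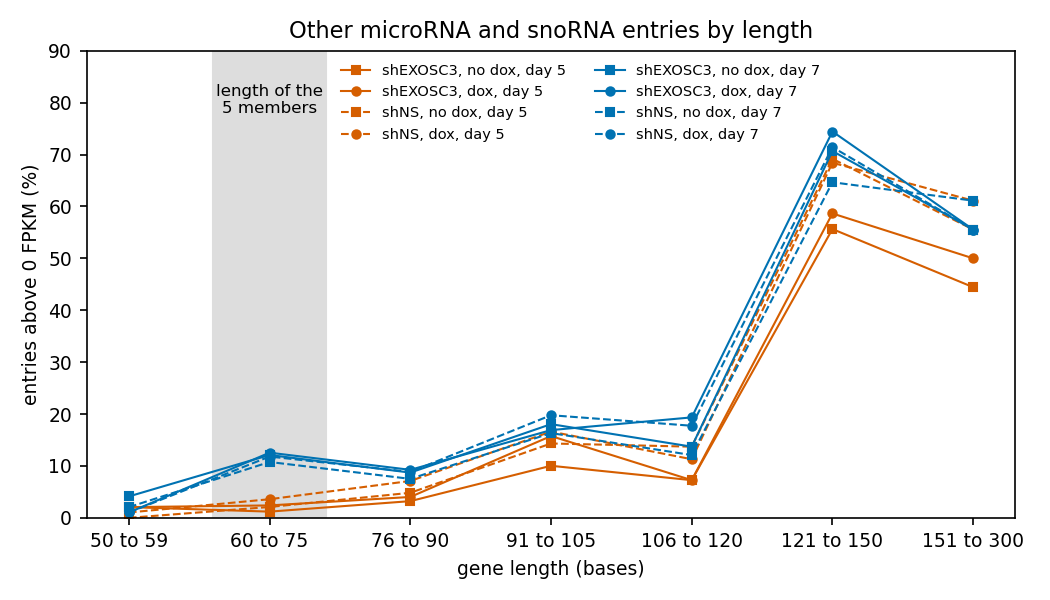
Share of other microRNA and snoRNA entries with a value above 0 FPKM (vertical axis, percent) by gene length in bases (horizontal axis), 1 line per library, day 5 in orange and day 7 in blue. In the shaded class of 60 to 75 bases, which holds the lengths of all 5 members, day 5 lies at 1.20% to 3.59% and day 7 at 10.8% to 12.6%.

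The effect of the knockdown could be described on day 7 alone, since both libraries of each day 5 table listed every member at 0. EXOSC3 itself, summed over its 2 entries, was measured on day 7 at 25.2 FPKM without and 12.3 FPKM with doxycycline in shEXOSC3, while shNS had 30.3 and 27.4 FPKM. The log2 ratio is log2((FPKM + 1)/(FPKM + 1)) of treated over untreated within a table. The cluster sum went from 18772 to 16570 FPKM in shEXOSC3, a log2 ratio of -0.18 with an exact 95% counting interval of -0.42 to 0.06 from 334 and 272 reads. In shNS it went from 19019 to 13710 FPKM, a log2 ratio of -0.47 (-0.74 to -0.20) from 239 and 230 reads. The sum was lower with doxycycline in both lines, and the larger difference lay in the line with the non-silencing hairpin.

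The adjusted log2 difference, taken as the shEXOSC3 ratio less the shNS ratio, was 0.29 for the cluster sum, with an exact 95% interval of -0.07 to 0.65 from the reads of the 4 libraries. The recovered reads of shNS, 239 and 230, were closer than its FPKM, because 1 read was worth 1.33 times as much FPKM in the untreated as in the treated library. MIR302C alone had log2 ratios of -0.19 (-0.44 to 0.07) in shEXOSC3 and -0.50 (-0.78 to -0.21) in shNS, and an adjusted difference of 0.31 (-0.07 to 0.69). These intervals cover the counting of reads in single libraries, not the spread between cultures, which is unknown.

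The rarer members were far less precise. MIR302D had log2 ratios of -0.30 in shEXOSC3 and 0.07 in shNS, and an adjusted difference of -0.37 (-2.02 to 1.26). MIR302A had 0.02 and -0.22, and 0.25 (-1.80 to 2.28). MIR302B had 0.12 and 0.17, and -0.05 (-4.78 to 4.72). MIR367 had 0.12 in shEXOSC3 and -2.39 in shNS, and its adjusted difference of 2.51 (-2.65 to 8.73) rested on 2, 2, 4 and 1 reads. In sign the 5 adjusted differences were split, 3 above 0 and 2 below.

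A member was counted as past 2-fold when its log2 value lay 1 or more from 0. In shEXOSC3 this held for 0 of 5 members, where among 19282 entries with a mean of at least 1 FPKM 6.10% were higher and 6.22% lower (12.3% in all), and among 323 microRNA entries 21.7% and 17.0% (38.7%). In shNS it held for 1 of 5, MIR367 as lower, where 6.47% of entries were higher and 5.74% lower (12.2%), and 22.3% and 16.7% of microRNA entries (39.0%). By the adjusted difference it held for 1 of 5, MIR367 as higher, where 9.20% of entries were higher and 9.84% lower (19.0%), and 29.1% and 32.2% of microRNA entries (61.3%). Since the members were chosen on these values, nothing is read from those counts. The members' median was 0.02 in shEXOSC3, -0.22 in shNS and 0.25 for the adjusted difference, beside 0.00 for all entries and for microRNA entries in each. Many of the 323 microRNA entries, such as MIR4449 and MIR3143, were at 0 FPKM throughout day 7 and so had a ratio of 0. Their median and shares are thus no like background for members with reads in every library of that day. In the authors' deposited table, p of the members on day 7 ran from 0.798 to 0.956 in shEXOSC3 and from 0.478 to 0.936 in shNS, and the smallest q was 0.927.

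**Figure D4:**
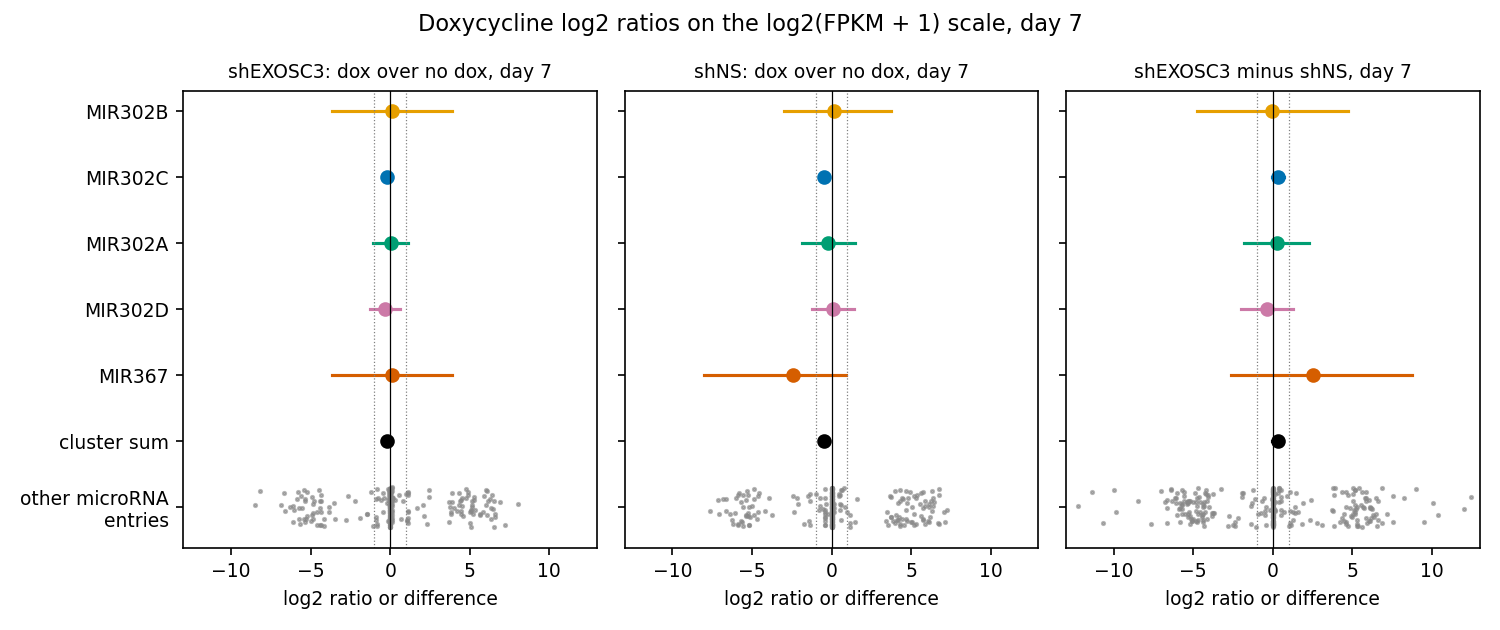
Log2 ratios of treated over untreated on day 7 in shEXOSC3 and shNS, and their difference (horizontal axes, log2), for the 5 members and their sum (vertical axis), with exact 95% counting intervals as lines, and for the other microRNA entries as grey points. MIR302C and the sum lie within 1 log2 unit of 0 in all 3 panels, while the line of MIR367 runs from -2.65 to 8.73 in the difference.

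The other human microRNAs with a miR-302 or miR-367 seed were compared with the members, since a shared seed gives overlapping targets. RefSeq lists 12 genes with the seed AAGUGCU in a mature arm. The arms of MIR372 and MIR373 are printed to show the shared seed, in capitals, beside otherwise different sequence.
miR-372-3p: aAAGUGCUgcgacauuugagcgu
miR-373-3p: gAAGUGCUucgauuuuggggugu
All 8 genes of this seed outside the cluster were listed at 0 in all 8 libraries: MIR302E, MIR372, MIR373 and 5 members of the miR-520 family. MIR371A and MIR371B, which lie beside MIR372 and MIR373, were at 0 too. Of all 1794 microRNA entries, 1464 were likewise at 0 in all 8 libraries. On day 7 the 4 miR-302 entries of the cluster were the only ones of 12 with this seed that had a value. They were chosen by such values, so nothing is read from that contrast.

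The seed of miR-367-3p, AUUGCAC, occurs in 7 genes, among them MIR25 and the MIR92 genes. The arms below carry it in capitals.
miR-25-3p: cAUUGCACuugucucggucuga
miR-92a-3p: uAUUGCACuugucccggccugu
Of the 6 genes other than MIR367, MIR32, MIR363, MIR92A1 and MIR92B were at 0 in all 8 libraries. MIR25 had 136, 101, 0 and 79.7 FPKM in untreated and treated shEXOSC3 and untreated and treated shNS on day 5, and 0, 30.9, 40.4 and 0 FPKM on day 7. MIR92A2 was at 0 in all of day 5 and had 41.1, 134, 58.2 and 0 FPKM on day 7. MIR367 was the 1 gene of this seed with a value in every library of day 7. It rested on 2, 2, 4 and 1 reads there, and MIR92A2 lacked a value only in treated shNS. As MIR367 was chosen by its day 7 values, nothing is read from this contrast.

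Relatives whose seed is shifted by a base, such as miR-17-5p (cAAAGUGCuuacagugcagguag), were sparse as well. Of 6 such genes MIR20A, MIR93 and MIR106A were at 0 throughout, MIR17 had a value in 1 library (18.7 FPKM), MIR106B in 2 (17.2 and 66.9 FPKM) and MIR20B in 2 (53.8 and 117 FPKM). Of 15 other microRNA genes of stem cells or lineages, such as the epithelial MIR200 genes, MIR145 and the neural MIR9 and MIR124 genes, 0 had a value in all 4 libraries of either day. Of these 15, 10 were at 0 in all 8 libraries, beside 1464 of all 1794 microRNA entries. Among 12 let-7 genes, microRNAs of differentiated cells that LIN28A holds back, 3 had any value on day 5 and 6 on day 7. MIRLET7F1 was the highest, with 204 and 304 FPKM in untreated and treated shEXOSC3 on day 7 and 72.1 and 162 FPKM in shNS, and 14.2 FPKM in 1 library of day 5.

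The highest microRNA entries of day 7 beside MIR302C were MIR198, at 12801 and 12692 FPKM in untreated and treated shEXOSC3 and 10704 and 14496 FPKM in shNS, and MIR3064, at 1494 to 2732 FPKM. By the Pearson correlation of log2(FPKM + 1) with the cluster sum over the 8 libraries, the most similar microRNA entries were MIR1181, MIR4442, MIR198, MIR3064 and MIR3916, with r from 0.999 to 1.00. All 5 were at 0 in every library of day 5. MIR1181 had 1256 and 926 FPKM in untreated and treated shEXOSC3 on day 7 and 1341 and 931 FPKM in shNS, lower with doxycycline in both lines like the cluster sum. MIR4442 and MIR3916 were higher with doxycycline in shEXOSC3, and MIR198 and MIR3064 in shNS.

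Among all entries the most similar were single transcripts of RPL3, VPS72, DYNLRB1, HADHB and SNRPD3, each with r of 1.00. The RPL3 entry NM_001033853 was at 0 in every library of day 5 and at 190 to 227 FPKM on day 7. RPL3, a ribosomal protein that every cell makes, had 2 entries. Their sum stood at 768 to 986 FPKM on day 5 and at 287 to 329 FPKM on day 7. Each hairpin had 1 entry but shared its deposited locus with the entries of LARP7 and ZGRF1. How reads were divided among entries was not tested. The libraries fall into 2 sets by day, so these correlations describe the step between days and nothing finer.

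LARP7, whose introns hold the cluster, had a value in every library. Summed over its 3 entries it stood at 63.5 and 67.5 FPKM in untreated and treated shEXOSC3 on day 5 and 87.9 and 82.2 FPKM in shNS, and at 92.2, 88.5, 102 and 90.7 FPKM on day 7 in the same order. Its adjusted log2 differences were 0.18 and 0.11 on days 5 and 7. The noncoding entry NR_049768 of the same locus, which had no symbol in the reference table, lay between 26.6 and 38.7 FPKM on day 5, and on day 7 between 41.8 and 55.2 FPKM. ZGRF1, a DNA helicase gene beside LARP7, had 11.2 to 14.2 FPKM on day 5, and 24.2 to 27.1 FPKM on day 7. The 3 neighbouring values were thus above 0 on day 5, when the hairpins were listed at 0.

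The factors that bind the cluster's promoter were present on both days. POU5F1 stood at 151 to 165 FPKM on day 5 and at 139 to 171 FPKM on day 7, and NANOG at 18.8 to 21.0 FPKM and 22.1 to 32.6 FPKM. On day 7 NANOG was lower with doxycycline in both lines, at 30.8 and 23.0 FPKM in shEXOSC3 and 32.6 and 22.1 FPKM in shNS. SOX2 had adjusted log2 differences of -0.34 and -0.37. Of 8 stem cell markers all were measured in every library, with a summed level of 1646 to 2043 FPKM on day 5 and 2070 to 2702 FPKM on day 7. Their adjusted log2 differences had medians of -0.25 on day 5 and -0.22 on day 7, beside -0.0006 and -0.01 over all genes. On both days 4 of 8 lay below 0 and 1 above, and the share of all genes that did so was not counted.

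Markers of other cell types were low with exceptions. The 3 markers each of neuroectoderm, endoderm and mesoderm summed to at most 0.717, 0.109 and 0.717 FPKM in any library. Of 7 stromal markers LUM and DCN were at 0 and COL3A1 stayed below the minimum, but THY1, which stem cells also carry, COL1A1, COL1A2 and POSTN were measured, and the list summed to 97.0 to 134 FPKM on day 5 and 168 to 225 FPKM on day 7. Most of this sum was THY1, at 74.1 to 107 FPKM on day 5 and 143 to 197 FPKM on day 7. COL1A1 had 3.87 to 9.11 FPKM and 13.6 to 20.0 FPKM, with adjusted log2 differences of 1.25 and -0.07, and COL1A2 had 10.7 to 16.7 FPKM and 9.85 to 10.8 FPKM. The part of these cells in the cluster's values was not tested.

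**Figure D5:**
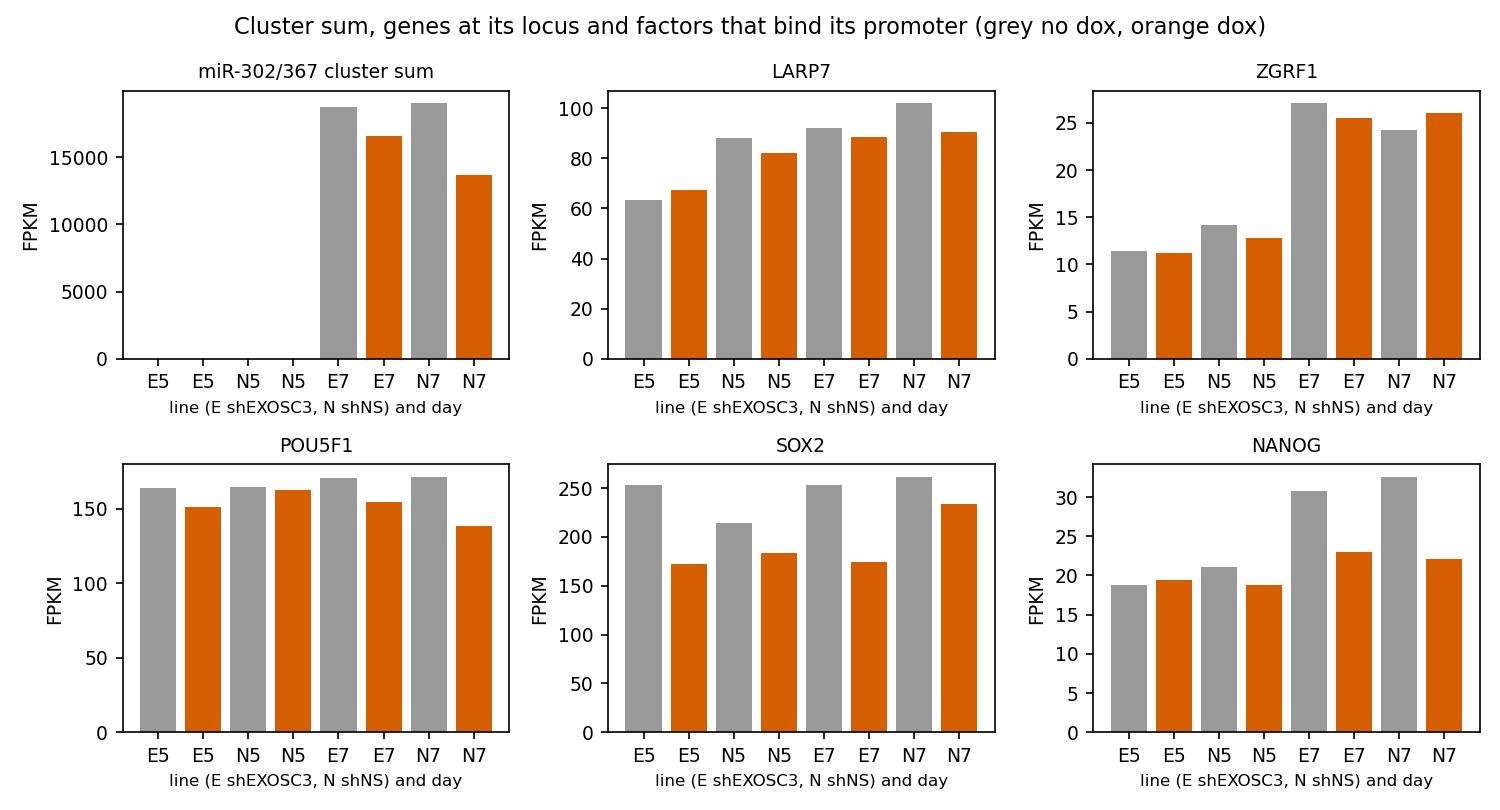
FPKM (vertical axes, from 0) of the cluster sum, of LARP7 and ZGRF1 at its locus and of POU5F1, SOX2 and NANOG, in the 8 libraries (horizontal axes, E for shEXOSC3 and N for shNS, with the day), grey without and orange with doxycycline. The cluster sum is at 0 on day 5 while all 5 other genes have values on both days.

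The proteins that make and use microRNAs were all measured, 12 of 12, and 0 passed a 2-fold adjusted difference on either day, where of 13114 genes 1.51% were higher on day 5 and 0.923% lower, and 2.20% higher on day 7 and 1.75% lower. The medians of the list were 0.08 and -0.05, beside 0.00 and -0.01 over all genes. The highest by the mean of both days was AGO1, an Argonaute protein, at 0.53 and 0.16, and the lowest AGO3, at -0.10 and -0.59. DROSHA, the nuclease that frees the hairpins, stood at 9.34 to 11.8 FPKM on day 5 and 26.1 to 31.1 FPKM on day 7, and its partner DGCR8 at 8.49 to 11.8 FPKM and 12.3 to 15.1 FPKM. DICER1 ran from 22.7 to 25.8 FPKM and from 26.4 to 33.4 FPKM. TARBP2, a partner of Dicer, went the other way between days, from 48.5 to 55.1 FPKM on day 5 to 13.2 to 15.8 FPKM on day 7.

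Of 15 genes reported as targets of miR-302 or miR-372, 12 were measured, and the NODAL antagonists LEFTY1 and LEFTY2 and the nuclear receptor NR2F2 stayed below a mean of 1 FPKM. On day 5 the 2-fold adjusted rule was passed by 0 of 12, and on day 7 by 2, both higher: CDKN1A, the p21 cell cycle inhibitor, at 1.21, and BTG2, an antiproliferative gene, at 1.04. Over all 13114 genes 1.51% were higher and 0.923% lower by this rule on day 5, and on day 7 2.20% and 1.75%. Both are also known as targets of p53. CDKN1A had 29.3 and 37.4 FPKM without and with doxycycline in shEXOSC3 on day 5, and 20.4 and 33.2 FPKM on day 7. In shNS it had 27.0 and 19.6 FPKM, then 14.8 and 9.93 FPKM, so it was higher with doxycycline in one line and lower in the other. BTG2 stood at 6.45 and 8.19 FPKM without and with doxycycline in shEXOSC3 on day 5 and 5.02 and 10.1 FPKM on day 7. In shNS it had 6.46 and 3.74 FPKM on day 5, then 3.63 and 3.16 FPKM. MBD2, a reader of DNA methylation, had 0.08 and 0.97, and the lowest was CCND1, cyclin D1, at -0.03 and -0.50. Adjusted differences lay above 0 on both days for 7 of the 12 and below 0 for 1. The list medians were 0.08 and 0.18, beside -0.0006 and -0.01 over all genes. The share of all genes above or below 0 on both days was not counted, so nothing is read from that split. These values stand beside a cluster that was listed at 0 on day 5 and whose own adjusted difference on day 7 was 0.29.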

How the data were processed

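Total RNA libraries (ScriptSeq v2 after Ribo-Zero, per the labels) were processed with CASAVA 1.8, TopHat and Cufflinks on hg19 (GRCh37), per the submitters' processing notes; their other versions, the normalization and the counting strand remain unstated in the labels. The deposited values are FPKM in Cuffdiff layout, 2 libraries per table, per the file headers. The deposited p-value and q-value come from the authors' test of 1 library against 1. RefSeq accessions were matched to symbols, lengths and class through a GRCh38.p14 table (48143 of 49235 entries, 97.8%); class and length replace the deposited locus, which is that of a whole read bundle. The pseudocount was 1 FPKM, the minimum mean 1 FPKM, and 164 failed or too deep entries were left out of background counts. Entries of a symbol were summed for genes.

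Reads were recovered from FPKM steps of microRNA and snoRNA entries up to 120 bases (74.3% of all such values whole within 1 percent), tested on simulated data. The simulated data held whole reads only, unlike the measured values. Intervals are exact Poisson, binomial and conditional odds ratio intervals (scipy 1.17.1, 95%). Named genes were the members, their locus, promoter factors, the ends of each list and the 5 most similar entries; MIR4449, MIR3143, the seed family genes with a value, the other marker, processing and target genes and RMRP and RPPH1 were named after their values were seen. Members and lists were chosen with earlier results of these data known. Total depth is unknown.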

Additional observations from a re-analysis of the deposited data

How the results depend on the processing

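On day 7 the cluster sum kept its sign in each line and stayed inside its counting interval with a pseudocount of 10 FPKM, with rescaling to the summed FPKM of entries of 300 bases or more, with rescaling by the upper quartile and, chosen after the data were seen, without MIR302C. Its log2 ratio ran from -0.18 to -0.07 in shEXOSC3 and from -0.47 to -0.25 in shNS. The interval is that of the full sum, of which MIR302C held 87.9% of the reads, and was not computed without MIR302C. A pseudocount of 10 FPKM was small beside sums of 13710 FPKM or more, so that setting could hardly move the ratio. The adjusted difference of 0.29 ran from 0.11 without MIR302C to 0.32, and was 0.27 between the treated libraries across tables. Between the untreated libraries across tables, chosen after the data were seen, the difference of the lines was -0.02. The share of entries past 2-fold by the adjusted difference was 19.0%, 14.5% with a minimum mean of 5 FPKM and 10.7% with none; in shEXOSC3 it was 12.3%, 9.35% and 6.52%, and in shNS 12.2%, 9.09% and 6.62%. Differences between days, and all day 5 ratios of the cluster, gave no value under any setting, since every member was listed at 0. No paired analysis was possible because each group holds 1 library. MIR302B and MIR367 rest on 1 to 4 reads per library.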
